A study of Mus musculus with 6 samples.

Results

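The genes of the major histocompatibility complex (MHC) and of antigen presentation were examined in the hearts of mice given angiotensin II (Ang II), with or without tectochrysin (Tec), a plant flavonoid. The members were taken by name: every gene of the expression table whose symbol starts with H2-, together with B2m, Tap1, Tap2, Tapbp, Psmb8, Psmb9, Psmb10, Nlrc5, Cd74 and Ciita. This gave 42 of the 30914 genes in the table, of which 27 belonged to the class I side and 11 to the class II side. The remaining 4 were 3 class I pseudogene models (H2-Q5, H2-T-ps and H2-M6-ps) and H2-Ke6, which matches by its symbol but encodes a steroid and fatty acid enzyme, not a presentation protein. Of the 27, H2-K2 and H2-T10 also carry a pseudogene biotype in the table but were kept with the class Ib genes, where H2-K2 was tested. The hearts came from male wild-type C57BL/6J mice, 8 weeks old at the start. In the Ang II group, 3 mice received Ang II at 1 μg/kg/min from osmotic pumps for 4 weeks, and in the Ang II + Tec group 3 mice received the same infusion and Tec at 5 mg/kg during the last 2 weeks. Every mouse thus received Ang II, and no heart without Ang II was analysed here, so the comparison asks what Tec treatment went with in hearts already under Ang II. Expression was given as FPKM, fragment numbers relative to transcript length and library total, in 1 bulk library per heart.

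MHC class I molecules consist of a heavy chain (H2-K1 and H2-D1 for the classical class Ia, many H2-Q, H2-T and H2-M genes for class Ib) bound to β2-microglobulin, the product of B2m. Peptides cut in the cytosol by the proteasome, whose interferon-inducible subunits are Psmb8, Psmb9 and Psmb10, are carried into the endoplasmic reticulum by the transporter Tap1-Tap2 and loaded with the help of tapasin (Tapbp). NLRC5 drives transcription of these genes. Class II molecules (chains H2-Aa, H2-Ab1 and H2-Eb1) take up peptides of ingested proteins instead. They are held by the invariant chain Cd74 until H2-DM exchanges a fragment of it for peptide, and their transcription depends on CIITA. Nearly every nucleated cell makes class I, whereas class II is made mainly by macrophages, dendritic cells and B cells. C57BL/6 mice make no H2-Ea chain, so H2-Eb1 transcript is not matched by an assembled I-E molecule in this strain.

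All H2 genes of the table lie on chromosome 17 of GRCm38, from H2-K2 (start 33974659) to H2-M3 (end 37274484), with Tap1, Tap2, Psmb8 and Psmb9 among them and Tapbp just before H2-K2. B2m lies on chromosome 2, Psmb10 and Nlrc5 lie on chromosome 8, and Ciita lies on chromosome 16. Class I and class II promoters are known to share an SXY module, which ends in a Y box bound by NF-Y, so the bases before the start of 5 members are shown because the comparison turns on these genes. The windows hold the 250 bases before the RefSeq start on GRCm38.p6: chr2:122147437-122147686 (+ strand), chr17:35262844-35263093 (+ strand), chr17:37269984-37270233 (+ strand), chr17:34287824-34288073 (- strand) and chr17:34305617-34305866 (+ strand). Each is printed 5′ to 3′ on the strand of its gene, and capitals mark a Y box (ATTGG), an interferon response element core (ISRE, GAAANNGAA), a kappa B motif (GGGNNTTCC) or a cyclic AMP response element core (CRE, TGACG), on either strand.
B2m: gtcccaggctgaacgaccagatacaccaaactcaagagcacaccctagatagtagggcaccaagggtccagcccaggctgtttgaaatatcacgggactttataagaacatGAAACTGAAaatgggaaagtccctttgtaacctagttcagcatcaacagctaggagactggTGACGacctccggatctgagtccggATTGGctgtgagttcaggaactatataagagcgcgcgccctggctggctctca
H2-D1: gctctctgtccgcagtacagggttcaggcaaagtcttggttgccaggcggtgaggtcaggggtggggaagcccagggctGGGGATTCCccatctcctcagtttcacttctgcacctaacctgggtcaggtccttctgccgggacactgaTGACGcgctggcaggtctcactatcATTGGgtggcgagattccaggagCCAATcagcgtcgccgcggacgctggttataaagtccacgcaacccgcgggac
H2-M3: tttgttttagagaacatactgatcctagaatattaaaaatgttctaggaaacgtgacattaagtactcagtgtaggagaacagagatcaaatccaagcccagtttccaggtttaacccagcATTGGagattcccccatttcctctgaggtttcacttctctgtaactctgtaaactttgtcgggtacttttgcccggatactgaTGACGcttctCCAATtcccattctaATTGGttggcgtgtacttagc
H2-Aa: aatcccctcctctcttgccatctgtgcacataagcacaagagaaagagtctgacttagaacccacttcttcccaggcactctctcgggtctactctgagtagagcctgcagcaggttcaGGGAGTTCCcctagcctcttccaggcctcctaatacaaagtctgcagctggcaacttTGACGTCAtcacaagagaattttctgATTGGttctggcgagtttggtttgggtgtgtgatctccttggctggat
H2-Eb1: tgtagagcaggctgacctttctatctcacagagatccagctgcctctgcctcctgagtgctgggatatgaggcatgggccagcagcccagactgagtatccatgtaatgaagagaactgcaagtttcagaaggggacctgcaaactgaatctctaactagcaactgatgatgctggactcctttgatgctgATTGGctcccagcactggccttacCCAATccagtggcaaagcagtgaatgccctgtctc

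In these windows, with position -1 the base before the start, B2m had 1 Y box with its first base at -53, an ISRE core at -139 and a CRE core at -78. H2-D1 had Y boxes at -76 and -53, a kappa B motif at -171 and a CRE core at -101. H2-M3 had Y boxes at -129, -36 and -21 and a CRE core at -46. Of the class II genes, H2-Aa had a Y box at -48, a kappa B motif at -131 and CRE cores on opposite strands at -74 and -71, and H2-Eb1 had Y boxes at -59 and -35. RefSeq promoters of 30 members were searched, over 250 bases before to 50 after the start, and a gene with 2 entries (3 members) was counted where either held the motif. The other 12 members were left out of the search. On the class II side these were Cd74, H2-Ab1 and Ciita, so the class II counts do not cover them. On the class I side, 15 of 20 genes held a Y box and 3 of 20 an ISRE core, and on the class II side these counts were 8 of 8 and 0 of 8. A kappa B motif was found in 5 of 20 class I and 2 of 8 class II genes, and a CRE core in 9 of 20 and 1 of 8. Psmb9 and Tap1 lie on opposite strands with overlapping windows, so the same Y box and the same CRE core were counted for both. Among all 32851 RefSeq promoters of this length, 37.4% held ATTGG, 8.6% the ISRE core, 5.8% the kappa B motif and 20.8% the CRE core. No motif overlapped one of another kind in the members. A match of these letters is a description of the sequence and not evidence of a bound site. Only these exact letters were searched. Close variants of the ISRE core, such as the unmarked tttcacttc in the H2-D1 and H2-M3 windows, were not counted. A missing match therefore does not show that an element is absent.

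On the log2 scale 16 of 18 tested class I genes and 2 of 6 tested class II genes had lower means with Ang II + Tec, beside 80.0% of all tested genes, and 0 members passed the test. Without H2-K2 the class I count was 16 of 17. Of the 42 members, 26 reached 0.5 FPKM in 3 or more libraries and were tested. The other 16 reached at most 0.82 FPKM in any library, 0 of them were at 0 in all 6 libraries and 6 were above 0 in all 6. They include the class II transactivator Ciita (0.04 to 0.14 FPKM), the class I transactivator Nlrc5 (0.27 to 0.46 FPKM), H2-DMb2, H2-Oa, H2-Ob and H2-Eb2. The test was limma on log2(FPKM + 1), a scale that understates the fold change of weakly expressed genes, and a gene was called at an adjusted p-value under 0.05 where the mean also differed by at least 1 on the log2 scale in either direction. By this rule 0 of the 26 members were called, beside 0.160% of the 13089 genes tested (21 genes). The lowest adjusted p-value of a member was 0.2005 with limma, for H2-M3. At an unadjusted p-value under 0.05, 9 of the 26 members were lower with Ang II + Tec, all on the class I side, and 0 were higher. Among all tested genes 16.5% were lower and 2.09% higher at that level. The count of lower members rested on single hearts: leaving out Ang II replicate 1, Ang II replicate 2, Ang II + Tec replicate 1 or Ang II replicate 3 gave 1, 2, 4 and 12 members, beside 6.21%, 7.62%, 7.75% and 39.2% of all genes tested in those fits. After median-of-ratios scaling the count was 5, beside 8.20%. Across all tested genes the median log2 fold change was -0.17, and it became 0.0020 under this scaling, which sets libraries to a common median of gene-wise ratios, so each difference is read against this shift.

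The libraries differed in more than treatment. The first principal component held 68.7% of the variance and placed Ang II replicate 3 (19.2) with the Ang II + Tec hearts (2.39 to 28.6), apart from the other two Ang II hearts (-31.2 and -46.1). Mitochondrial transcripts made up 40.1% to 48.9% of the FPKM in the Ang II group and 49.6% to 52.5% in the Ang II + Tec group. The 7 cardiomyocyte markers of the labelled tissue were abundant, at 8446 to 10320 summed FPKM, whereas 4 atrial markers summed to 6204, 10250 and 256.2 FPKM in the Ang II hearts and to 906.4, 5032 and 127.5 FPKM in the Ang II + Tec hearts. Most of each atrial sum was Nppa, whose product ANP the paper also reads as a marker of hypertrophy. Sln was at 67.08, 134.77 and 0.05 FPKM with Ang II and at 0, 255.22 and 0.02 FPKM with Ang II + Tec. Myl7 and Myl4 were high in the same 3 hearts and reached at most 1.58 FPKM in the others. The 3 hearts with high Sln, Myl7 and Myl4, Ang II replicates 1 and 2 and Ang II + Tec replicate 2, were the 3 lowest on the first principal component. The part of sampled atrium in the members' values was not tested.

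**Figure D1:**
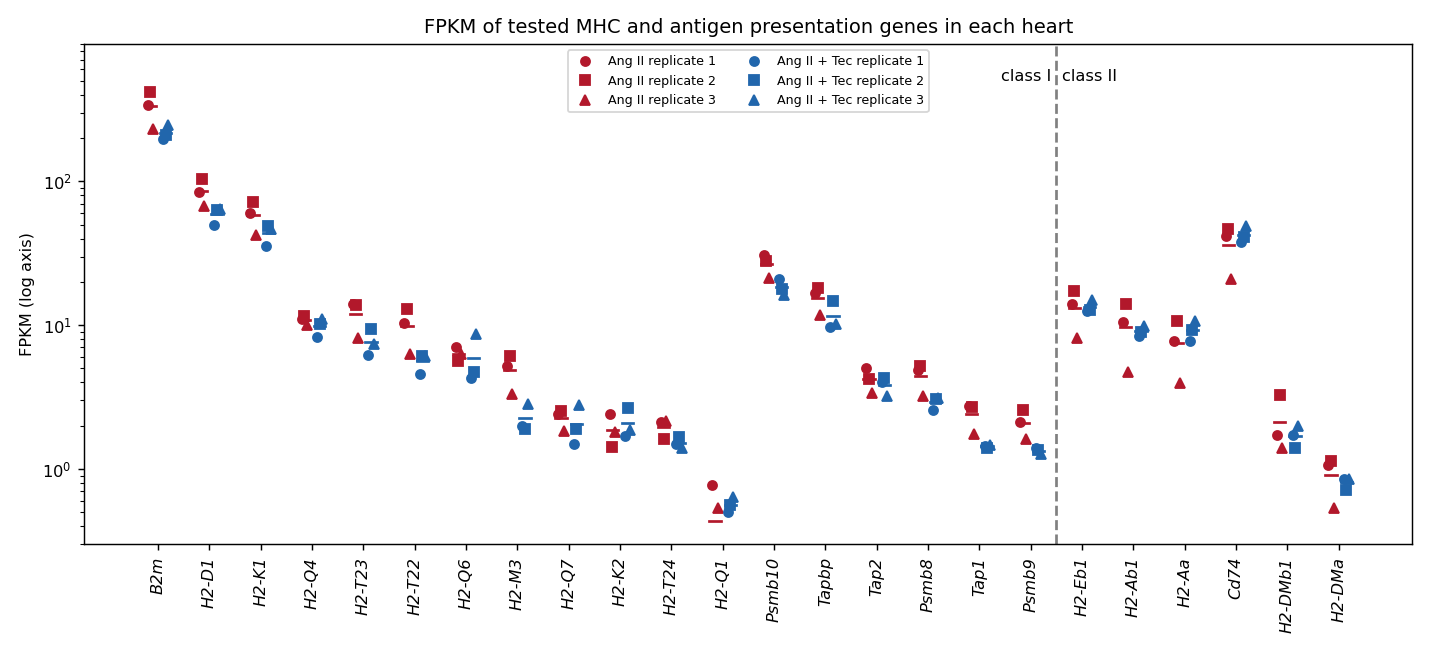
FPKM (log axis) of the 24 tested class I and class II genes in each heart, with red for Ang II, blue for Ang II + Tec, a symbol shape for each replicate number and a bar for the group mean; the value of 0 for H2-Q1 in Ang II replicate 2 lies off the axis. Most class I genes are lower in the blue group, and for all 6 class II genes Ang II replicate 3 is the lowest or tied lowest heart.

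B2m was the most abundant member. Its FPKM were 341.63, 419.37 and 232.45 with Ang II alone and 197.67, 209.11 and 245.03 in the Ang II + Tec hearts. The means were 331 ± 93.9 and 217 ± 24.7 FPKM (SD, n = 3 each), and the groups overlapped because the value of Ang II replicate 3 was under that of Ang II + Tec replicate 3. The log2 fold change was -0.57 (SE 0.22, adjusted p = 0.248 with limma). H2-D1, a classical heavy chain, was at 84.25, 103.78 and 67.33 FPKM with Ang II and at 49.61, 62.94 and 63.76 FPKM with Ang II + Tec. All 3 Ang II hearts lay above all 3 Ang II + Tec hearts, with a log2 fold change of -0.51 (SE 0.18, adjusted p = 0.234). H2-K1, the other classical heavy chain of this strain, was at 60.01, 71.71 and 42.54 FPKM with Ang II and at 35.62, 49.02 and 46.32 FPKM with Ang II + Tec. Here Ang II replicate 3 lay among the Ang II + Tec hearts, and the log2 fold change was -0.39 (SE 0.21, adjusted p = 0.338). None of these differences passed the test. After median-of-ratios scaling the log2 fold changes of B2m, H2-D1 and H2-K1 were -0.34, -0.28 and -0.15. The 100-base windows of the H2-K1 and B2m transcripts were found in no other gene, and 4.64% of those of H2-D1 were shared with other genes, mostly H2-Q1.

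Of 17 class Ib genes in the table, 9 were tested, and 7 of these had a lower log2 mean with Ang II + Tec, beside 80.0% of all tested genes. H2-M3, which presents N-formylated peptides of bacteria and mitochondria, had the largest log2 fold change among the 26 tested members. It was at 5.18, 6.10 and 3.31 FPKM with Ang II alone and at 2.00, 1.91 and 2.83 FPKM with Ang II + Tec, with no overlap. The means were 4.86 ± 1.42 and 2.25 ± 0.507 FPKM, and the log2 fold change was -0.83 (SE 0.21, adjusted p = 0.2005 with limma), or -0.65 after median-of-ratios scaling. Without Ang II replicate 3 it was -1.04 and H2-M3 was called, in a fit that called 544 genes in all. H2-T22, a ligand of some γδ T cell receptors, was at 10.31, 12.86 and 6.29 FPKM with Ang II and at 4.60, 6.14 and 6.11 FPKM with Ang II + Tec. Its groups did not overlap either, though Ang II replicate 3 and the highest Ang II + Tec heart lay close together, and the log2 fold change was -0.67 (SE 0.24, adjusted p = 0.234). H2-T22 shared 9.38% of its windows with other genes, mainly H2-T10, so reads of these genes could be divided differently by another counting. H2-T23, the Qa-1 molecule recognised by NKG2A receptors, was at 13.99, 13.77 and 8.16 FPKM with Ang II and at 6.16, 9.45 and 7.38 FPKM with Ang II + Tec. The groups overlapped at Ang II replicate 3 and the log2 fold change was -0.56 (SE 0.23, adjusted p = 0.258).

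The H2-Q genes, which include those of the Qa-2 antigen, stood nearer to the median of all genes. H2-Q4 was at 11.07, 11.57 and 10.05 FPKM with Ang II and at 8.33, 10.22 and 11.10 FPKM with Ang II + Tec, and H2-Q6 was at 7.08, 5.60 and 6.34 FPKM and at 4.30, 4.75 and 8.71 FPKM. Both had a log2 fold change of -0.13 (SE 0.13 and 0.23), which turned to 0.08 and 0.07 after median-of-ratios scaling, and both overlapped between groups. For H2-Q6 the 3 Ang II + Tec hearts spread more widely (SD 2.43 FPKM) than the Ang II hearts (SD 0.740 FPKM), since Ang II + Tec replicate 3 held the highest value of all 6. H2-Q6 shared 10.8% of its windows with other genes, most often with H2-Q7. H2-T24, H2-Q7, H2-K2 and H2-Q1 all stayed at or below 2.79 FPKM, with log2 fold changes of -0.23, -0.11, 0.09 and 0.16. H2-Q1 was listed at 0 in Ang II replicate 2 and at 0.50 to 0.77 FPKM in the other hearts. Outside the class lists, the pseudogene model H2-Q5 was at 0.72 to 1.41 FPKM (log2 fold change -0.15, SE 0.14), and H2-Ke6 was at 16.06 to 21.63 FPKM (-0.08, SE 0.14) but shared 92.0% of its windows with Gm20427. The model H2-T-ps, which was too low to be tested, was at 0.55, 0.78 and 0.21 FPKM with Ang II and at 0.11, 0 and 0.10 FPKM with Ang II + Tec.

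All 6 tested genes of peptide supply and loading had lower means with Ang II + Tec, as 80.0% of all tested genes did, and 4 of them had no overlap between groups. Among all tested genes 18.9% were lower with no overlap. Tap1, a subunit of the peptide transporter, was at 2.73, 2.71 and 1.75 FPKM with Ang II and at 1.44, 1.41 and 1.48 FPKM with Ang II + Tec, a log2 fold change of -0.46 (SE 0.15, adjusted p = 0.222 with limma). The Ang II + Tec hearts were nearly equal, and each lay below the lowest Ang II heart. Tap2, its partner, was at 5.00, 4.25 and 3.37 FPKM with Ang II and at 4.01, 4.31 and 3.24 FPKM with Ang II + Tec. Its groups overlapped, with a log2 fold change of -0.10 (SE 0.16, adjusted p = 0.722) that turned to 0.09 after median-of-ratios scaling. Tapbp was at 16.69, 18.00 and 11.71 FPKM with Ang II and at 9.72, 14.76 and 10.17 FPKM with Ang II + Tec, a log2 fold change of -0.39 (SE 0.21, adjusted p = 0.327) with overlap at Ang II + Tec replicate 2.

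The 3 interferon-inducible proteasome subunits were each lower without overlap. Psmb10 was at 30.66, 28.02 and 21.36 FPKM with Ang II alone and at 20.92, 17.77 and 16.26 FPKM with Ang II + Tec, a log2 fold change of -0.51 (SE 0.16, adjusted p = 0.224 with limma). Psmb8 was at 4.88, 5.18 and 3.24 FPKM and at 2.57, 3.07 and 3.14 FPKM, a log2 fold change of -0.45 (SE 0.17, adjusted p = 0.240). Psmb9 was at 2.12, 2.57 and 1.61 FPKM and at 1.39, 1.35 and 1.27 FPKM, a log2 fold change of -0.40 (SE 0.14, adjusted p = 0.231). For Psmb10 and Psmb8 the gap between Ang II replicate 3 and the highest Ang II + Tec heart was narrow. After median-of-ratios scaling the log2 fold changes were -0.28, -0.26 and -0.24.

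Each inducible subunit replaces a constitutive one (Psmb8 for Psmb5, Psmb9 for Psmb6, Psmb10 for Psmb7), and their ratio within a library does not depend on how libraries are scaled. The ratio of Psmb10 to Psmb7 was 105.8%, 86.6% and 77.6% in the Ang II hearts and 71.1%, 65.99% and 61.9% in the Ang II + Tec hearts. The ratio of Psmb9 to Psmb6 was 4.19%, 5.31% and 4.23% with Ang II and 3.69%, 3.35% and 3.32% with Ang II + Tec. In both ratios all Ang II + Tec hearts lay below all Ang II hearts, by 0.43 and 0.40 on the log2 scale (exact two-sided permutation p = 0.1 each, adjusted p = 0.15 over the 3 ratios). Among all tested genes 12.6% had a lower ratio to Psmb7 and 11.1% a lower ratio to Psmb6 without overlap. The ratio of Psmb8 to Psmb5 was 5.19%, 5.56% and 4.43% with Ang II and 3.47%, 4.11% and 4.57% with Ang II + Tec, and the groups overlapped (exact permutation p = 0.2, adjusted p = 0.2). With 3 hearts against 3 there are 20 splits and 0.1 is the smallest p-value this test allows. The 3 constitutive subunits themselves had log2 fold changes of -0.25 (Psmb5), -0.22 (Psmb6) and -0.10 (Psmb7), and 0 of 3 passed an unadjusted p-value of 0.05.

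The class II genes differed between the groups by less than the spread of the Ang II hearts. Cd74, the invariant chain, was the most abundant class II member, at 41.35, 46.45 and 20.92 FPKM with Ang II alone and at 37.54, 41.15 and 49.17 FPKM with Ang II + Tec. Its means were 36.2 ± 13.5 and 42.6 ± 5.95 FPKM, a log2 fold change of 0.30 (SE 0.29, adjusted p = 0.543 with limma). Ang II replicate 3 was the lowest heart of all 6, and the other Ang II hearts lay within the range of the Ang II + Tec hearts. H2-Aa, the α chain of I-A, was at 7.81, 10.75 and 3.99 FPKM with Ang II and at 7.82, 9.27 and 10.64 FPKM with Ang II + Tec, a log2 fold change of 0.34 (SE 0.30, adjusted p = 0.503). H2-Ab1, its β chain, was at 10.54, 13.99 and 4.74 FPKM and at 8.46, 8.92 and 9.87 FPKM, a log2 fold change of 0.01 (SE 0.32, adjusted p = 0.981), although its mean FPKM was 9.76 with Ang II and 9.08 with Ang II + Tec. H2-Eb1 was at 14.00, 17.40 and 8.17 FPKM and at 12.50, 12.84 and 15.06 FPKM, a log2 fold change of 0.08 (SE 0.25, adjusted p = 0.854). In all 3 chains the Ang II + Tec hearts lay between the extremes of the Ang II hearts, so the groups overlapped completely.

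H2-DMa and H2-DMb1, which form the peptide exchange factor H2-DM, were weakly expressed. H2-DMa was at 1.07, 1.13 and 0.54 FPKM with Ang II and at 0.85, 0.72 and 0.85 FPKM with Ang II + Tec, a log2 fold change of -0.07 (SE 0.14), which was 0.05 after median-of-ratios scaling. H2-DMb1 was at 1.71, 3.28 and 1.39 FPKM and at 1.73, 1.39 and 1.99 FPKM, a log2 fold change of -0.17 (SE 0.22), and it shared 13.7% of its windows with H2-DMb2. Neither passed the test (adjusted p = 0.787 and 0.656 with limma). Over the 6 tested class II genes, 4 had a higher and 2 a lower log2 mean, the median log2 fold change was 0.05, and 0 passed an unadjusted p-value of 0.05 in either direction. Over the 18 tested class I genes, 16 had a lower mean, 9 passed an unadjusted p-value of 0.05, 7 did not overlap between groups, and the median was -0.39. After median-of-ratios scaling these medians were 0.27 and -0.21. The class I genes were not alike. The median was -0.51 for the 3 class Ia genes and -0.42 for the 6 tested genes of peptide supply and loading. For the 9 tested class Ib genes it was -0.13, no lower than the -0.17 of all tested genes. After median-of-ratios scaling these 3 medians were -0.28, -0.25 and 0.05. Of all tested genes, 80.0% had a lower mean, 16.5% were lower at an unadjusted p-value under 0.05 and 18.9% were lower without overlap.

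**Figure D2:**
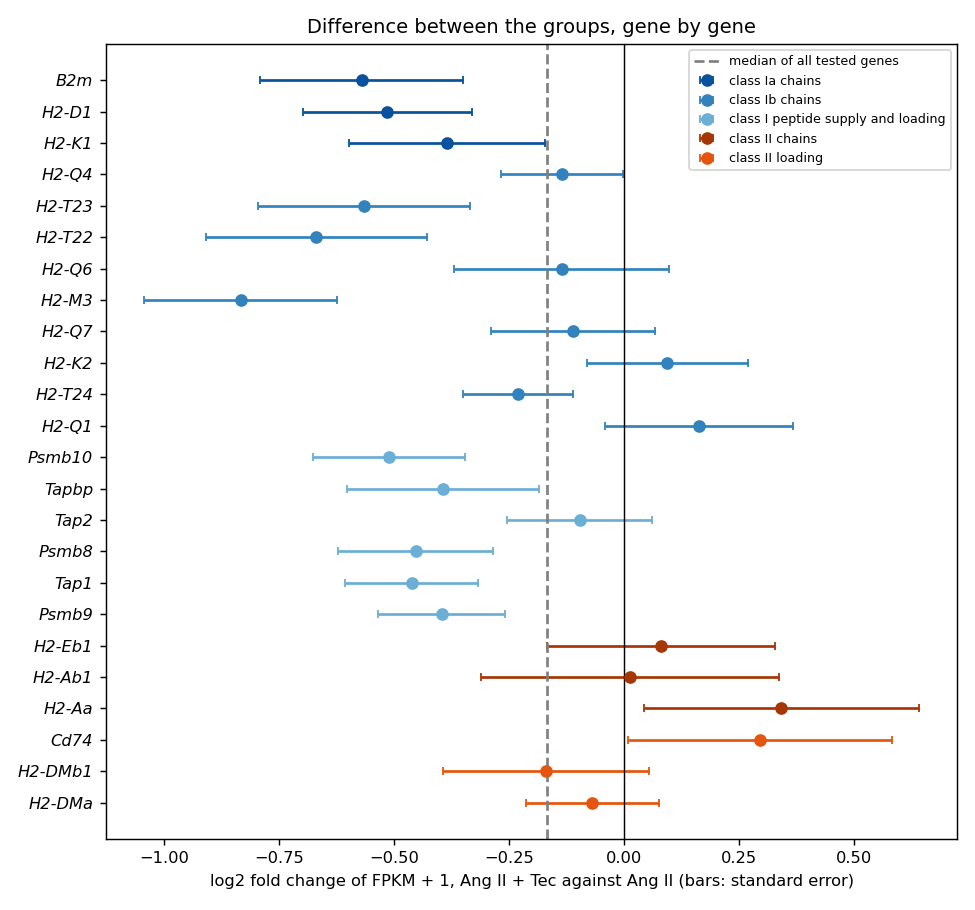
Log2 fold change of FPKM + 1 between Ang II + Tec and Ang II for the 24 tested class I and class II genes, with bars of 1 standard error, a solid line at 0 and a dashed line at the median of all tested genes (-0.17). Most class I chains and loading genes (blue) lie left of the dashed line, and the class II chains and Cd74 (orange) lie right of it.

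Class II was also set against class I within each heart. These ratios were chosen after the values had been seen. The summed FPKM of H2-Aa, H2-Ab1 and H2-Eb1 came to 22.4%, 24.01% and 15.4% of the sum of H2-K1 and H2-D1 in the Ang II hearts and to 33.8%, 27.7% and 32.3% in the Ang II + Tec hearts. The lowest Ang II + Tec heart thus lay above the highest Ang II heart, with means of 20.6% ± 4.59 and 31.3% ± 3.16 (SD, n = 3 each). Cd74 came to 12.1%, 11.1% and 9.0% of B2m with Ang II and to 18.99%, 19.7% and 20.1% with Ang II + Tec, means of 10.7% ± 1.58 and 19.6% ± 0.545. Both ratios separated the groups although neither Cd74 nor any class II chain did so alone. Of the 12 ratios of Cd74, H2-Aa, H2-Ab1 or H2-Eb1 to B2m, H2-K1 or H2-D1, 11 were higher with Ang II + Tec without overlap, by 0.49 to 0.97 on the log2 scale (exact two-sided permutation p = 0.1 each, the smallest possible). H2-Ab1 to H2-K1 overlapped (0.42, exact permutation p = 0.2). The 12 ratios reuse 7 genes and are not independent of each other. For comparison, 12.6% of all tested genes had a higher ratio to B2m without overlap and 15.6% a higher ratio to the sum of H2-K1 and H2-D1, whereas 2.90% of genes had higher FPKM without overlap.

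**Figure D3:**
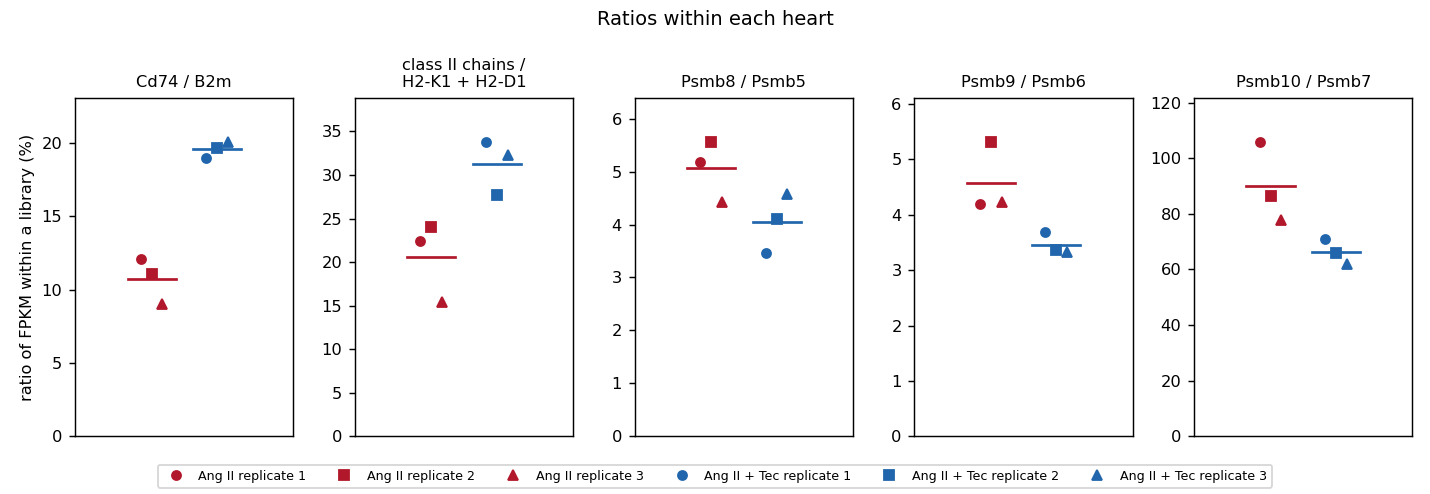
FPKM ratios within each heart, in percent on axes that start at 0, for Cd74 to B2m, the class II chains to H2-K1 plus H2-D1, and the 3 inducible proteasome subunits to their constitutive partners (red Ang II, blue Ang II + Tec, bars at group means). The 2 class II ratios are higher in every Ang II + Tec heart, and the Psmb9 and Psmb10 ratios are lower in every Ang II + Tec heart.

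Ang II replicate 3 bore on both classes, in different ways. It was the lowest of the 3 Ang II hearts in 14 of 18 class I and 6 of 6 class II genes. In 0 of 18 class I genes was it the lowest of all 6 hearts, whereas in 6 of 6 class II genes it was lowest or tied for lowest. Without it the class I median was -0.58 and the class II median -0.21, beside -0.24 for all genes tested in that fit. The log2 fold changes of Cd74, H2-Ab1 and H2-Eb1 turned to -0.05, -0.39 and -0.20. That of H2-Aa was then 0.00052. The distance between the class medians was 0.44 with all hearts and 0.37 without Ang II replicate 3. Over the 11 other settings that can move it, this one included, the distance ran from 0.12 (no filter) to 0.61, and the scalings among them shift both classes nearly alike. The difference between the class medians was given no test, since genes of a class are not replicates.

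Genes of the class II route other than the chains and chaperones were measured beside them. All 9 tested genes of this list had a lower mean, beside 80.0% of all tested genes, 3 passed an unadjusted p-value of 0.05, and these 3 had no overlap between groups (median log2 fold change -0.27). The shares of all tested genes were 16.5% lower at that level and 18.9% lower without overlap. Ctss, the cathepsin that trims the invariant chain, was at 21.25, 35.54 and 10.65 FPKM with Ang II alone and at 8.08, 9.02 and 7.76 FPKM with Ang II + Tec, a log2 fold change of -1.19 (SE 0.37, adjusted p = 0.221 with limma). Ifi30, the thiol reductase of endosomes, was at 11.56, 16.06 and 6.50 FPKM and at 4.48, 5.02 and 4.24 FPKM, a log2 fold change of -1.07 (SE 0.28, adjusted p = 0.2005). Lgmn, an endosomal protease, was at 41.07, 48.86 and 26.34 FPKM and at 22.67, 25.51 and 21.31 FPKM, a log2 fold change of -0.68 (SE 0.22, adjusted p = 0.226). These 3 genes had negative log2 fold changes where those of Cd74 and the class II chains were at or above 0.01.

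Markers of leukocytes also stood lower. All 12 macrophage markers had a lower mean with Ang II + Tec, 11 at an unadjusted p-value under 0.05 and 9 without overlap, with a median log2 fold change of -0.83 that was -0.63 after median-of-ratios scaling. Their summed FPKM ranged from 285.4 to 557.4 in the Ang II group and from 193.4 to 212.6 in the Ang II + Tec group, and none was at 0 in any library. The 5 pan-leukocyte markers summed to 25.5 to 57.9 FPKM and to 15.01 to 17.8 FPKM, and all 4 that were tested were lower without overlap. For comparison with both lists, 80.0% of all tested genes had a lower mean. At an unadjusted p-value under 0.05, 16.5% were lower, and 18.9% were lower without overlap. C1qa, a complement gene of macrophages, was at 67.89, 82.45 and 47.44 FPKM with Ang II and at 26.29, 28.10 and 32.28 FPKM with Ang II + Tec. In these bulk libraries fewer cells of a type and less RNA per cell cannot be told apart, and the part of leukocyte number in the class I values was not tested. The ratio of Cd74 to Cd68, a macrophage marker, was 4.84, 4.67 and 4.35 with Ang II and 10.85, 11.6 and 15.6 with Ang II + Tec. This separation is no feature of Cd74, because 76.0% of all tested genes had a higher ratio to Cd68 without overlap.

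**Figure D4:**
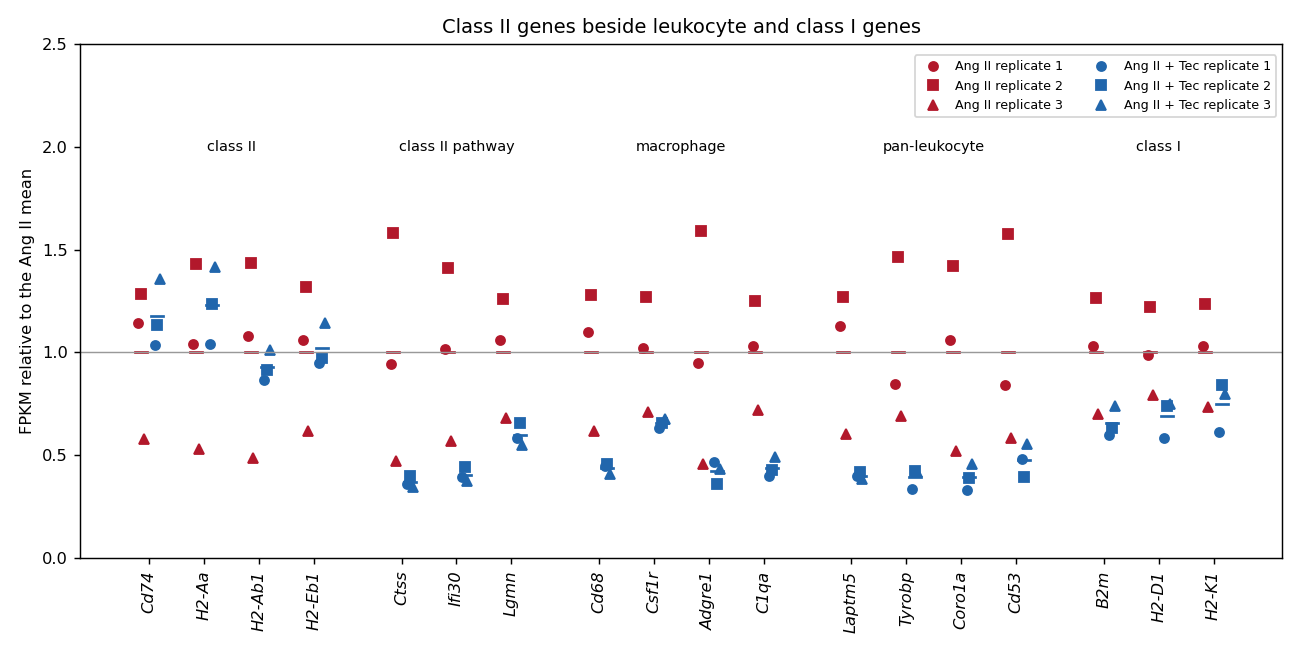
FPKM of each gene in each heart divided by the mean of the 3 Ang II hearts (grey line at 1), for class II genes, other class II pathway genes, macrophage and pan-leukocyte markers and class I genes, with bars at group means. The Ang II + Tec hearts (blue) all lie above the line for Cd74 and H2-Aa, on both sides of it for H2-Ab1 and H2-Eb1 and below it for every other gene shown, and Ang II replicate 3 (red triangle) is below the line throughout.

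Markers of other cell types gave sums that do not measure the share of cells. The 10 dendritic cell markers summed to 3.36 to 5.35 FPKM with Ang II and to 2.78 to 3.29 FPKM with Ang II + Tec, with Ccr7, Siglech and Batf3 each at 0 in 1 library. The 7 B cell markers summed to 0.49 to 0.57 FPKM and to 0.36 to 0.75 FPKM, with none tested and with Cr2 and Pax5 at 0 in 4 libraries each. The 10 markers of T and NK cells summed to 1.01 to 1.73 FPKM and to 0.91 to 2.86 FPKM, and 1 was tested. The 8 endothelial markers, from cells that also make much class I, summed to 131.9 to 148.2 FPKM and to 118.5 to 135.9 FPKM. Of these 8, 2 were lower at an unadjusted p-value under 0.05, beside 16.5% of all tested genes. The 7 fibroblast markers differed most between hearts, at 770 and 1017 summed FPKM in Ang II replicates 1 and 2, 169.4 in Ang II replicate 3 and 139.1 to 229.4 with Ang II + Tec. The part of any of these cell types in the values of the members was not tested.

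Genes related to class I outside the name rule were counted from other lists. Of 19 chaperones, trimming enzymes, proteasome activators and promoter factors, 17 had a lower mean, beside 80.0% of all tested genes. Their median log2 fold change was -0.13, above that of all tested genes. In this list 2 genes were lower at an unadjusted p-value under 0.05, beside 16.5% of all tested genes. They were Sec61a1 (a subunit of the translocon, log2 fold change -0.69, SE 0.28, adjusted p = 0.260 with limma) and Nfya (a subunit of the Y box factor NF-Y, -0.39, SE 0.15, adjusted p = 0.255). The chaperone Calr of the loading complex was at 68.1 ± 18.0 FPKM with Ang II and 52.2 ± 6.18 FPKM with Ang II + Tec, with overlap. Of 5 tested class I-like genes outside the MHC, 4 had a lower mean, beside 80.0% of all tested genes (median log2 fold change -0.36). Only 1, Hfe, the partner of the transferrin receptor, was lower at an unadjusted p-value under 0.05, beside 16.5% (log2 fold change -0.40, SE 0.16, adjusted p = 0.258).

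Interferon γ signalling, the best-known inducer of both classes, was covered by 10 tested genes. All had a lower mean with Ang II + Tec, beside 80.0% of all tested genes, and 2 passed an unadjusted p-value of 0.05, beside 16.5%. Their median log2 fold change was -0.23, and -0.07 after median-of-ratios scaling. The receptor chain Ifngr2 was at 52.61, 51.05 and 48.78 FPKM with Ang II alone and at 40.23, 32.35 and 38.83 FPKM with Ang II + Tec, a log2 fold change of -0.45 (SE 0.12, adjusted p = 0.2005 with limma). Here Ang II replicate 3 stayed with its group.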

How the data were processed

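RNA from 6 hearts (3 Ang II, 3 Ang II + Tec) was sequenced as bulk poly(A) libraries. The authors trimmed reads with Cutadapt and deposited FPKM with 2 decimals per gene and library. The submitters' processing notes name Bowtie 0.12.2, HISAT2 2.0, StringTie 1.3.0 and build mm8 without roles, but the coordinates of 35 of the 42 members equal those of GENCODE M21 on GRCm38, which was used here. FPKM carry no read totals, so no counting interval was computed and the spread between mice (n = 3) is the error. Columns of the table other than FPKM were used only for names and coordinates.

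The 13089 genes reaching 0.5 FPKM in 3 or more libraries were fitted as log2(FPKM + 1) with limma 3.58.1 in R 4.3.3 (lmFit, eBayes with trend) and adjusted by Benjamini-Hochberg over all tested genes. Ratios within a library were compared by exact permutation (20 splits). Transcripts were compared in windows of 100 bases. The fit was tested on simulated data. Alternatives changed pseudocount, filter, scaling, variance trend and replicate block, and left out each library. Values are given in every library for tested members of the class Ia, loading and class II lists, for the 5 class Ib genes with the highest mean and for any at an unadjusted p-value under 0.05, and for at most 3 genes of each other list, those with the lowest p-values. Calr and Cd68 were picked afterwards. The members and lists were chosen with earlier results of these data known.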

Additional observations from a re-analysis of the deposited data

How the results depend on the processing

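Settings were changed one at a time. The named members are the 20 tested members whose values are given above in every library. The filters, the variance trend and the replicate block leave the fold change of a named member as it is. Of the 180 pairs of a named member and an alternative that moves its fold change, 167 kept direction and call, 12 turned direction (in 8 members) and 1 became called (H2-M3, -1.04 without Ang II replicate 3). With 1 library left out, 0 to 1 members were called, and 1 to 12 members were lower at an unadjusted p-value under 0.05, where 1 and 2 members were left without Ang II replicates 1 and 2, and 4 with Ang II + Tec replicate 1 left out. Among all genes that share was between 6.21% (Ang II replicate 1 omitted) and 39.2% (Ang II replicate 3 omitted). Under median-of-ratios scaling it was 5 members, beside 8.20% of all genes. The class I median was -0.13 with no filter, -0.21 under median-of-ratios scaling and -0.58 to -0.30 with 1 library left out. The class II median was -0.013 at a filter of 0.1 FPKM and -0.013 with no filter, and -0.21 to 0.30 with 1 library left out, with -0.019 if Ang II + Tec replicate 3 was the one omitted. For all tested genes the median was -0.24 to -0.13 with 1 library left out.

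Of the named members, Tap2 (0.094), H2-DMa (0.052), H2-Q4 (0.080) and H2-Q6 (0.067) turned direction under median-of-ratios scaling. So did H2-Q7 (0.053) and H2-Ke6 (0.15), which are not among the named members and not in the counts above. With 1 library left out, the log2 fold changes ran from -0.22 to 0.013 for Tap2, -0.39 to 0.31 for H2-Ab1, -0.20 to 0.30 for H2-Eb1, -0.048 to 0.51 for Cd74, -0.22 to 0.016 for H2-DMa, -0.34 to 0.081 for H2-DMb1 and -0.41 to 0.031 for H2-Q6. Single omissions turned Tap2 to 0.013 (Ang II replicate 1), Cd74 to -0.048 (Ang II replicate 3), H2-DMa to 0.016 and H2-DMb1 to 0.081 (Ang II replicate 2) and H2-Q6 to 0.031 (Ang II + Tec replicate 1). With the replicate block 10 members were lower at an unadjusted p-value under 0.05 instead of 9, 0 were called, and 22 genes were called in all instead of 21. The share of all tested genes lower at that level was then 22.9% instead of 16.5%. The deviations of hearts with the same replicate number correlated at -0.04, 0.43 and 0.38, 4 of 6 hearts correlated best with their own number, and the numbers were not taken as pairs. Genes called over the whole table numbered 21, 544 without Ang II replicate 3, and 0 to 22 in the other settings.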
